A study of Mus musculus with 14 samples.

Results

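Prostanoid synthesis was described in mouse aortic valve leaflets through 10 genes that run from the phospholipases, over the cyclooxygenases and the terminal synthases, to receptors of the products. The 10 genes (Pla2g4a, Pla2g5, Ptgs1, Ptgs2, Ptges, Ptgis, Ptgds, Tbxas1, Ptger4 and Ptgir) were selected on earlier results of these same libraries, by symbol and without a cut-off on any value. Their levels and differences between the groups are therefore given as a description, and where the threshold over all genes or another test touches them, it is not evidence about them. They are 10 of the 56941 genes in the count table, and all 10 averaged 10 counts or more over the 14 libraries, as did 19145 genes in all.

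Prostanoids are made on demand from arachidonic acid, which phospholipases cut from membrane lipids and which the cyclooxygenases turn into the unstable prostaglandin H2. Each terminal synthase makes its own product from this intermediate, and the products act close to their source through G protein-coupled receptors. In the vessel wall and on valve surfaces prostacyclin, which relaxes smooth muscle and keeps platelets from aggregating, is the classic product of endothelium, whereas thromboxane comes mainly from platelets and macrophages.

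Each library held bulk RNA of aortic valve leaflets from wild type male C57BL/6J mice on a Breslow Western Diet, 8 weeks old at the start. The study asked how angiotensin II (AngII) remodels the valve and how LY272015, which blocks the serotonin receptor HTR2B, changes that response. Ctrl mice were untreated (n = 4 libraries), and AngII mice received 1000 ng/kg/min AngII from osmotic pumps over 28 days (n = 4 libraries). LY mice received LY272015 at 3 mg/kg (n = 2 libraries), and AngII+LY mice received both (n = 4 libraries). The series design has the pumps of AngII and AngII+LY mice removed 48 h before collection, while the methods describe this for a subset, and some labels of treated mice carry a compound number other than LY272015. In bulk tissue, fewer cells of a type and less RNA per cell cannot be told apart.

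Between 20990655 and 73128220 counts fell on genes in a library, AngII 4 being the smallest. The mitochondrial share lay between 4.0 and 7.52% in Ctrl libraries, between 8.62 and 9.77% in LY libraries and between 9.83 and 25.5% with AngII, with or without LY272015. A gene was called where edgeR's quasi-likelihood test gave a Benjamini-Hochberg adjusted p under 0.05 with a log2 fold change beyond 0.5 in either direction. By this rule 556 genes were called between AngII and Ctrl (469 higher and 87 lower in AngII, 2.90% of those tested) and 176 between AngII+LY and AngII (79 higher and 97 lower, 0.919%). No gene (0%) was called by edgeR between LY and Ctrl, where 2.53% had an unadjusted p under 0.05, or between AngII+LY and Ctrl, where 13.8% did, and DESeq2 called 21 and 343 genes there. The lowest adjusted p was 0.0439 and 0.026 in the first 2 comparisons, and no gene was called in them under the older (legacy) form of the same test or after a correction for GC content, as described in the closing section. All 7 endothelial and all 7 valve interstitial or fibroblast markers were detected in every library.

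In Ctrl valves the genes of prostacyclin and prostaglandin D2 synthesis stood at the top. Per kilobase of canonical transcript, Ptgis reached 10393 ± 2964 normalized counts (mean ± SD, n = 4), above Ptgds with 3796 ± 1459 and Ptgs1 with 3616 ± 1256, whose ranges overlapped. Pla2g4a (982 ± 390) and Pla2g5 (816 ± 367) followed and overlapped as well. Ptger4 (379 ± 136), Tbxas1 (206 ± 162), Ptges (152 ± 69.5), Ptgs2 (84.2 ± 34.3) and Ptgir (77.1 ± 38.2 per kilobase) made up the lower end, where neighbours in the order did not differ beyond their spread. Ptgs2 held rank 9 in Ctrl and LY valves and rank 5 in both AngII and AngII+LY valves, where its range overlapped with that of Pla2g5. In AngII it ran from 137 to 1867 per kilobase, highest in AngII 4. In AngII+LY valves Ptgds (14139 ± 3980 per kilobase) took the first place from Ptgis (7821 ± 3287), although their ranges overlapped.

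**Figure D1:**
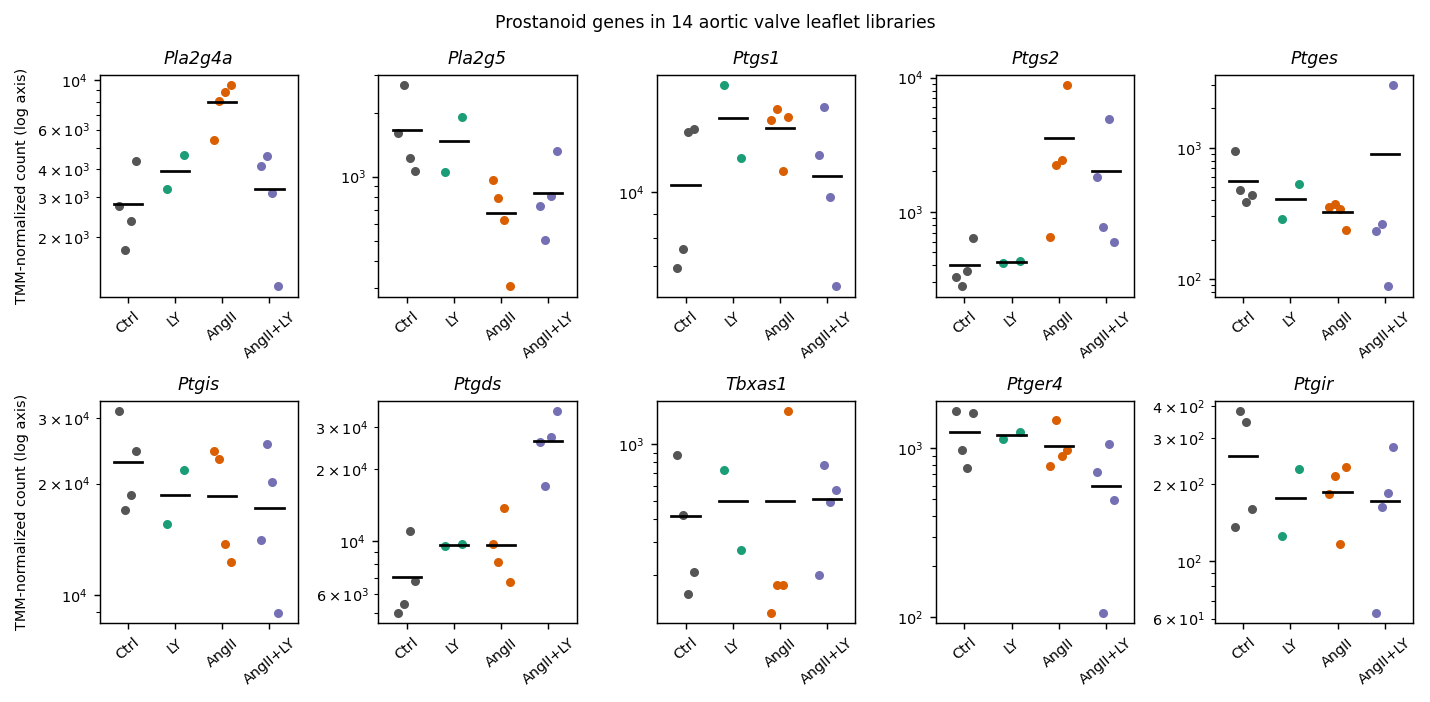
TMM-normalized counts (log axis) of the 10 prostanoid genes, with 1 point per library and a black bar at the group mean for Ctrl (n = 4), LY (n = 2), AngII (n = 4) and AngII+LY (n = 4). All AngII points of Pla2g4a lie above all Ctrl points, and all AngII+LY points of Ptgds lie above those of every other group.

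Taking the 10 genes by whether the groups overlapped, 4 of 10 had no overlap between AngII and Ctrl (Pla2g4a and Ptgs2 higher, Pla2g5 and Ptges lower), where 15.0% of all tested genes had none. Between AngII+LY and AngII it was 2 of 10 (Ptgds higher and Pla2g4a lower) against 11.1%, between AngII+LY and Ctrl 1 of 10 (Ptgds higher) against 8.16%, and between LY and Ctrl 0 of 10 against 12.0%. By the edgeR threshold, Pla2g4a and Ptgs2 were among the genes called higher in AngII than in Ctrl (2 of 10, beside 2.90%) and Ptgds among those called higher in AngII+LY than in AngII (1 of 10, beside 0.919%). At an unadjusted p under 0.05 the counts were 3 of 10 in the first comparison (27.6% of all genes) and 2 of 10 in the second (24.8%). They were 4 of 10 between AngII+LY and Ctrl (13.8%) and 0 of 10 between LY and Ctrl (2.53%). Because the genes were selected on these libraries, nothing is read from these counts. The median log2 fold change of the 10 genes was -0.13 between AngII and Ctrl and -0.08 between AngII+LY and AngII, next to -0.05 and -0.02 over all tested genes.

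**Figure D2:**
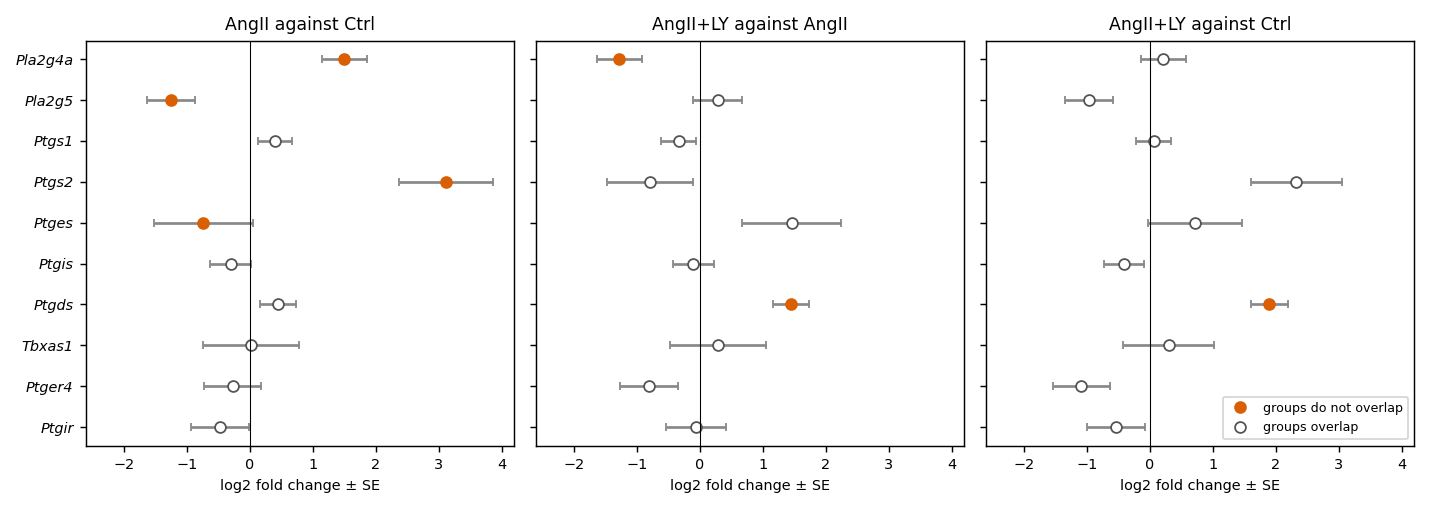
Log2 fold changes ± SE of the 10 genes in 3 comparisons, with filled points where the normalized counts of the groups do not overlap and open points where they do. Pla2g4a lies at 1.5 in AngII against Ctrl and at -1.29 in AngII+LY against AngII, and Ptgds lies at 1.45 and 1.90 in the comparisons with AngII+LY.

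Of the phospholipases, Pla2g4a was higher with AngII and Pla2g5 was lower. Pla2g4a encodes the cytosolic, calcium-activated phospholipase that releases arachidonic acid in most cells. It spans chromosome 1, 149705369 to 149837053 on the minus strand (GRCm39), and 138.1 kb separate it from Ptgs2, the inducible cyclooxygenase gene. A promoter window each of Pla2g4a, Ptgs2 and Ptgds, the 3 genes called in a comparison, is printed from RefSeq (build GRCm38.p6). It takes 250 bases before and 50 after the start, 5′ to 3′ on the strand of the gene. Capitals mark matches on either strand to 5 motifs, whose share is given over 32851 mouse windows of this length. The cAMP response element half-site CGTCA was found in 20.8% of the windows and the E-box CACGTG in 7.15%. The AP-1 letters TGANTCA were found in 7.81% of them and the TATA box TATAAA in 13.6%. The GC box GGGCGG was found in 35.7%. Pla2g4a has 2 windows, and that of the downstream start, which is not printed, held a TATAAA on the opposite strand, 200 bases upstream of that start. The window of the upstream Pla2g4a start (chr1:149961241-149961540, minus strand) held no match:
Pla2g4a: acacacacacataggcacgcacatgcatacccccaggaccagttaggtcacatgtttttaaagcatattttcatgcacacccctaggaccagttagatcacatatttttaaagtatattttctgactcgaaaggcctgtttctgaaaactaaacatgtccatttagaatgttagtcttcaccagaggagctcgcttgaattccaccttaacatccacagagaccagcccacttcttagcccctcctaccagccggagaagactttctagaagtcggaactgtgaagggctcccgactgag

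Pla2g4a counts were 2742, 1759, 2358 and 4364 in the Ctrl libraries and 3260 and 4613 in the LY libraries. With AngII they were 5425, 8046, 8801 and 9516, all above the highest value of any other group. With AngII+LY they were 4122, 4565, 3150 and 1206, within or below the Ctrl and LY range. The mean was 7947 ± 1786 in AngII against 2806 ± 1115 in Ctrl (2.83-fold; log2 fold change 1.5, SE 0.36) and 3261 ± 1492 in AngII+LY (log2 fold change against AngII -1.29, SE 0.36). Leaving out any library kept the first difference between 1.33 and 1.80 and the second between -1.47 and -1.01 on the log2 scale. The exons of Pla2g4a have a GC content of 43.3%, below the first quartile of tested genes (44.5%). After the correction for GC content the log2 fold changes were 1.23 and -0.88, with overlap between AngII+LY and AngII. Valve interstitial and fibroblast markers made up at least 1.157% of every AngII library and at most 0.869% of any AngII+LY library. Their share was lowest in AngII+LY 4 (0.468%), which also had the lowest Pla2g4a. It was 1.831% in Ctrl 1, where Pla2g4a was 2742. The part of these markers in the Pla2g4a difference was not tested.

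Pla2g5, which encodes a secreted phospholipase, went the other way. Its counts were 1603, 2706, 1223 and 1060 in Ctrl and 969, 794, 625 and 304 in AngII. The means were 1648 ± 741 and 673 ± 283 (log2 fold change -1.25, SE 0.38), and every AngII library lay below every Ctrl library. The values of the AngII+LY libraries, 724, 503, 808 and 1321, overlapped with both groups (839 ± 346; log2 fold change against Ctrl -0.97, SE 0.38). With a GC content of 53.3%, above the third quartile of 53.2%, Pla2g5 moved less after the GC correction (-0.80 between AngII and Ctrl), still without overlap.

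Within each library, and so without any scaling between libraries, the 2 phospholipases shifted against each other. Per kilobase, Pla2g4a was 0.46 to 2.91 times Pla2g5 in Ctrl and 3.96 to 22.0 times in AngII libraries, with no overlap. In log2 units the ratio was 0.285 ± 1.09 in Ctrl, 0.96 ± 0.26 in LY (n = 2), 3.15 ± 1.03 in AngII and 1.38 ± 1.43 in AngII+LY. The AngII+LY values overlapped with both Ctrl and AngII, and AngII+LY 3 and 4, at ratios of 2.755 and 0.645, lay inside the Ctrl range.

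Of the cyclooxygenases, the groups of the constitutive Ptgs1 overlapped while the inducible Ptgs2 was higher in most AngII-infused valves. Ptgs2 lies on chromosome 1, 149975194 to 149983978 on the plus strand (GRCm39). Its promoter window (chr1:150099781-150100080, plus strand, GRCm38.p6) is placed by a RefSeq start, and the start used in these valves was not tested. The window held a CGTCA that shares bases with a CACGTG, the first letters 14 and 17 bases downstream of the RefSeq start. A GGGCGG lay 170 bases upstream of it:
Ptgs2: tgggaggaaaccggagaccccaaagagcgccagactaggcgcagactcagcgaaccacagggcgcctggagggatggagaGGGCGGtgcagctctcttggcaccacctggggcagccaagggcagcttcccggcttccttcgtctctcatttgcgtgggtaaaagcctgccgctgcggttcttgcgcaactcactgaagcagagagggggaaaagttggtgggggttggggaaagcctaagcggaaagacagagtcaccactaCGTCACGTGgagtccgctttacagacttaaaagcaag

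Ptgs2 counts were 324, 277, 359 and 639 in Ctrl and 413 and 431 in LY libraries. In AngII they spread from 650 through 2237 and 2439 to 8864, and the lowest of these, in AngII 1, stood only just above the highest Ctrl value. The mean was 3548 ± 3634 in AngII against 400 ± 163 in Ctrl (log2 fold change 3.11, SE 0.74). Scaled by total counts instead of TMM, AngII and Ctrl overlapped. Without AngII 4, the smallest library with the highest value, the log2 fold change was 2.14.

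With AngII+LY, Ptgs2 counts were 1829, 774, 4876 and 599, so that 3 of the 4 libraries lay above all Ctrl libraries and the fourth within their range. The group mean of 2020 ± 1981 did not differ from that of AngII beyond the spread (log2 fold change -0.79, SE 0.68), and without AngII 4 the difference turned to 0.18. Against Ctrl the log2 fold change was 2.32 (SE 0.72). A long noncoding RNA gene, Ptgs2os, overlaps the first 521 bases of Ptgs2 on the other strand. How the counting treated strand is not given in the sources used here, and Ptgs2os reached 49.5 normalized counts at most in Ctrl and 331 in AngII 4, where Ptgs2 was highest, but 2.88 in AngII+LY 3, where Ptgs2 was 4876.

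Ptgs1 was the main cyclooxygenase transcript in every library. Its counts ranged from 6927 to 13581 in Ctrl libraries, from 11106 to 14981 in AngII libraries and from 6329 to 15114 in AngII+LY libraries, with log2 fold changes of 0.40 (SE 0.28) between AngII and Ctrl and -0.34 (SE 0.28) between AngII+LY and AngII. After the GC correction, all AngII libraries lay above all Ctrl libraries in Ptgs1 (0.77). Per kilobase, Ptgs2 made up 1.59 to 2.76% of the 2 cyclooxygenases in Ctrl and 1.46 to 2.15% in LY libraries. In AngII libraries the share ran from 2.69 to 27.1% and in AngII+LY libraries from 3.0 to 23.1%. Only AngII 1 among the 8 AngII-infused libraries fell inside the Ctrl range.

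**Figure D3:**
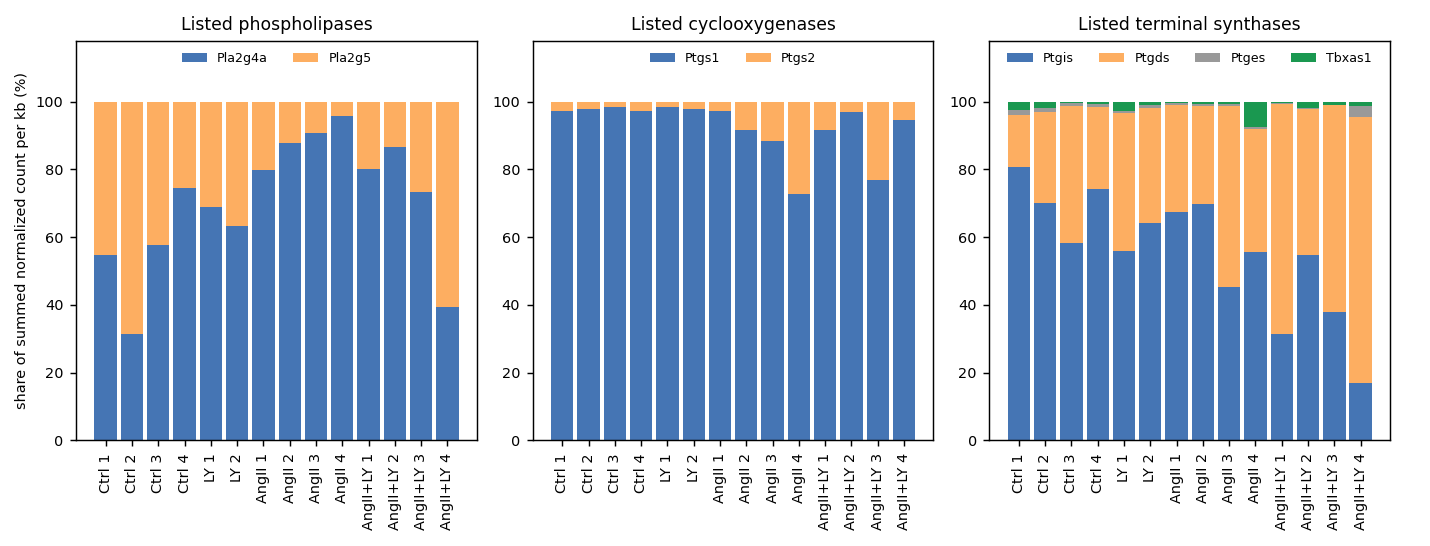
Share of each gene in the summed normalized count per kilobase of the listed phospholipases, cyclooxygenases and terminal synthases, with 1 stacked bar per library. Ptgs2 reaches 27.1% of the cyclooxygenases in AngII 4, and Ptgds holds 43.0 to 78.4% of the synthases in the AngII+LY libraries.

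Of the terminal synthases, Ptgds was the gene that set AngII+LY valves apart. It encodes lipocalin-type prostaglandin D synthase, which also binds lipophilic molecules outside the cell. Its promoter window (chr2:25469700-25469999, minus strand, GRCm38.p6) held a TGANTCA whose first base lies 35 bases upstream of the start. The same letters were found in 1 other window of the 11 that cover 9 of the 10 genes, that of Tbxas1:
Ptgds: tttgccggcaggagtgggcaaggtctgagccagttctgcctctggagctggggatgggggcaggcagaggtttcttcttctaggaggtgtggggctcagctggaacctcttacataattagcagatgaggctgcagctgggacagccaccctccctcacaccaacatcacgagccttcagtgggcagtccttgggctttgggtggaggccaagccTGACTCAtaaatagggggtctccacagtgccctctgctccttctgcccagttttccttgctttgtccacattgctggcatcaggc

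Ptgds counts were 5017, 5477, 10980 and 6786 in Ctrl, 9559 and 9738 in LY, and 9762, 8145, 13817 and 6777 in AngII libraries. These 3 groups overlapped (log2 fold change AngII against Ctrl 0.45, SE 0.28, and 0.92 after the GC correction). With AngII+LY the counts were 25872, 16981, 27349 and 35045, each above every other library. The mean of 26312 ± 7407 compares with 9625 ± 3049 in AngII (2.73-fold; log2 fold change 1.45, SE 0.29) and 7065 ± 2715 in Ctrl (3.72-fold; log2 fold change 1.90, SE 0.29). No library decided the size of these differences: leaving out any of them gave 1.28 to 1.68 and 1.73 to 2.19. The edgeR call against AngII did depend on single libraries, as given in the closing section. After the GC correction they were 1.22 and 2.15, without overlap.

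Other transcripts moved with Ptgds. The 8 cardiomyocyte markers together held between 0.612 and 1.225% of a library in AngII, between 0.648 and 2.63% in Ctrl and between 1.52 and 3.52% in AngII+LY, and none of the 8 was at 0 in any library. The 7 valve interstitial and fibroblast markers held between 0.468 and 0.869% in AngII+LY, below AngII (at least 1.16%) and Ctrl (at least 0.884%). The cardiomyocyte share was highest in AngII+LY 4 (3.52%), which also had the highest Ptgds (35045 normalized counts). In Ctrl 2 this share stood at 2.63%, above 2 of the AngII+LY libraries, while Ptgds was 5477 there. The part of these marker sets in the Ptgds result was not tested.

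Ptgis, the prostacyclin synthase gene, was the most abundant synthase transcript per kilobase in every Ctrl and LY library, in 3 of 4 AngII and in 1 of 4 AngII+LY libraries. Its counts lay between 16981 and 31382 in Ctrl, 12306 and 24519 in AngII, and 8975 and 25591 in AngII+LY, and all groups overlapped. The log2 fold change between AngII and Ctrl was -0.31 (SE 0.32) and turned to 0.265 after the GC correction. Among the 4 listed synthases, Ptgis held 58.2 to 80.8% per kilobase in Ctrl, 45.2 to 69.8% with AngII and 17.0 to 54.8% with AngII+LY, every AngII+LY library lying below every Ctrl library. Ptgds held 15.3 to 40.5%, 28.9 to 53.5% and 43.0 to 78.4% in the same order.

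Ptges, which encodes the inducible microsomal prostaglandin E synthase, was low in nearly all libraries. Its counts were 941, 480, 386 and 436 in Ctrl and 352, 375, 344 and 235 in AngII, so that AngII lay just below Ctrl (log2 fold change -0.74, SE 0.79), but not after the GC correction (-0.25). In AngII+LY they were 233, 263, 87.8 and 3029, the last in AngII+LY 4. That library alone carried the higher group mean of 903 ± 1419: without it the log2 fold change against AngII went from 1.46 to -0.77 and that against Ctrl from 0.71 to -1.51. Smooth muscle markers (5 genes, none at 0) held 0.861% of the counts in Ctrl 1 and 0.115% in AngII+LY 4, the libraries with the highest Ptges, and 0.15% in AngII+LY 2, where Ptges was 263. Their part in this was not tested.

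Tbxas1, the thromboxane synthase gene, overlapped between all groups, with its highest value in AngII 4. Its counts were 875, 418, 159 and 209 in Ctrl, 730 and 272 in LY, 126, 178, 177 and 1506 in AngII, and 200, 776, 491 and 568 in AngII+LY. The log2 fold change between AngII and Ctrl was 0.01 (SE 0.76), and -1.37 without AngII 4. Between AngII+LY and AngII it was 0.285 (SE 0.77), and 1.67 without AngII 4, when every AngII+LY library lay above the remaining AngII libraries. Platelet and megakaryocyte markers (6 genes) held 0.282% of the counts in AngII 4 and 0.0240 to 0.114% in the other libraries, whereas macrophage markers (7 genes) were lower in AngII 4 (0.0134%) than in any other library. Their part in the Tbxas1 value was not tested. Relative to Tbxas1, Ptgis was 32.9 to 107 times as abundant per kilobase in Ctrl, 7.50 to 178 times with AngII and 14.5 to 64.2 times with AngII+LY. The first 1241 bases of the Tbxas1 locus overlap Hipk2 on the other strand.

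For the listed receptors the groups overlapped in every comparison, and each receptor had its lowest value in an AngII+LY library. Ptger4, the prostaglandin E receptor EP4, which raises cAMP, was counted at 1662, 979, 766 and 1611 in Ctrl, 785, 1461, 905 and 979 in AngII, and 726, 106, 1057 and 492 in AngII+LY. The log2 fold change of AngII+LY was -0.81 (SE 0.46) against AngII and -1.09 (SE 0.46) against Ctrl, with overlap in both. Ptger4 lies across from Ttc33 over 15661 bases. Ptgir, the prostacyclin receptor, was the lowest of the 10 genes per kilobase in each group, with normalized counts between 135 and 383 in Ctrl, 117 and 232 in AngII, and 63.2 and 277 in AngII+LY libraries. Its log2 fold change was -0.48 (SE 0.46) between AngII and Ctrl and -0.07 (SE 0.48) between AngII+LY and AngII.

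LY272015 without AngII was measured in 2 libraries. None of the 10 genes separated LY from Ctrl, and the log2 fold changes ran from -0.54 (Ptgir, SE 0.55) to 0.49 (Pla2g4a, SE 0.42). The difference made by LY272015 was set against the presence of AngII with an interaction term. It was -1.77 (SE 0.55) on the log2 scale for Pla2g4a and 1.0 (SE 0.46) for Ptgds. Over all tested genes 0 were called for the interaction by edgeR, and 210 by DESeq2.

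Each gene had its own closest companions over the 14 libraries, by Pearson r of log2(normalized count + 1) among 19144 genes, given as a description. Pla2g4a was most like Itgav (r = 0.97), Dync1i2, Mtpn, H3f3b and Cggbp1, and Itgav was also first within the groups (r = 0.99). Ptgds was most like Anxa13 (0.96), Rpsa-ps9, Mt1, Gm34331 and Acta1, the last being the skeletal alpha-actin gene. Pla2g5 was most like Entpd2 (0.95), Adamtsl4, Cygb, Flcn and Wnt5b. Ptgs2 was most like Rras2 (0.93), Hmgcs1, Guf1, Wnt10a and Slc12a2.

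Ptgs1 was most like Crim1 (0.93), Cgnl1, Elk3, Arhgef3 and Erg, an endothelial transcription factor gene. Tbxas1 was most like Taldo1 (0.91), Itgb2, Laptm5, Stom and Rhoh, of which Itgb2 and Laptm5 are leukocyte genes. Ptgis was most like Mxra7 (0.94), Praf2, Gm10123, Ifitm2 and Tusc1, Ptges most like Sardh (0.91), Ppp1r3b, Klhdc8b, Abtb2 and Abat, Ptger4 most like Pappa2 (0.92), Klhl29, Ccdc103, Cdca5 and Rhobtb3, and Ptgir most like Fbh1 (0.90), Rbfox1, C920006O11Rik and Anapc5. Within the 10 genes, Pla2g5 and Ptgs2 ran most against each other (r = -0.81), and Pla2g4a ran with Ptgs1 (0.67) and with Ptgs2 (0.63). The points of all these values share library depth and composition.

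The rest of the pathway was followed through 72 genes in 7 lists, of which 60 were tested. Between AngII and Ctrl edgeR called 2 of the 60, both higher (background 2.90%), and 20 passed an unadjusted p under 0.05 (12 higher, 8 lower, beside 27.6% of all genes). Between AngII+LY and AngII it called 0 of 60, with 7 higher and 9 lower at an unadjusted p under 0.05 (24.8%), while DESeq2 called 5. No pathway gene was called between LY and Ctrl or between AngII+LY and Ctrl. At an unadjusted p under 0.05 the counts were 2 of 60 (2.53% of all genes) and 9 of 60 (13.8%). The median log2 fold change of the 60 genes was -0.28 between AngII and Ctrl and -0.19 between AngII+LY and AngII.

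**Figure D4:**
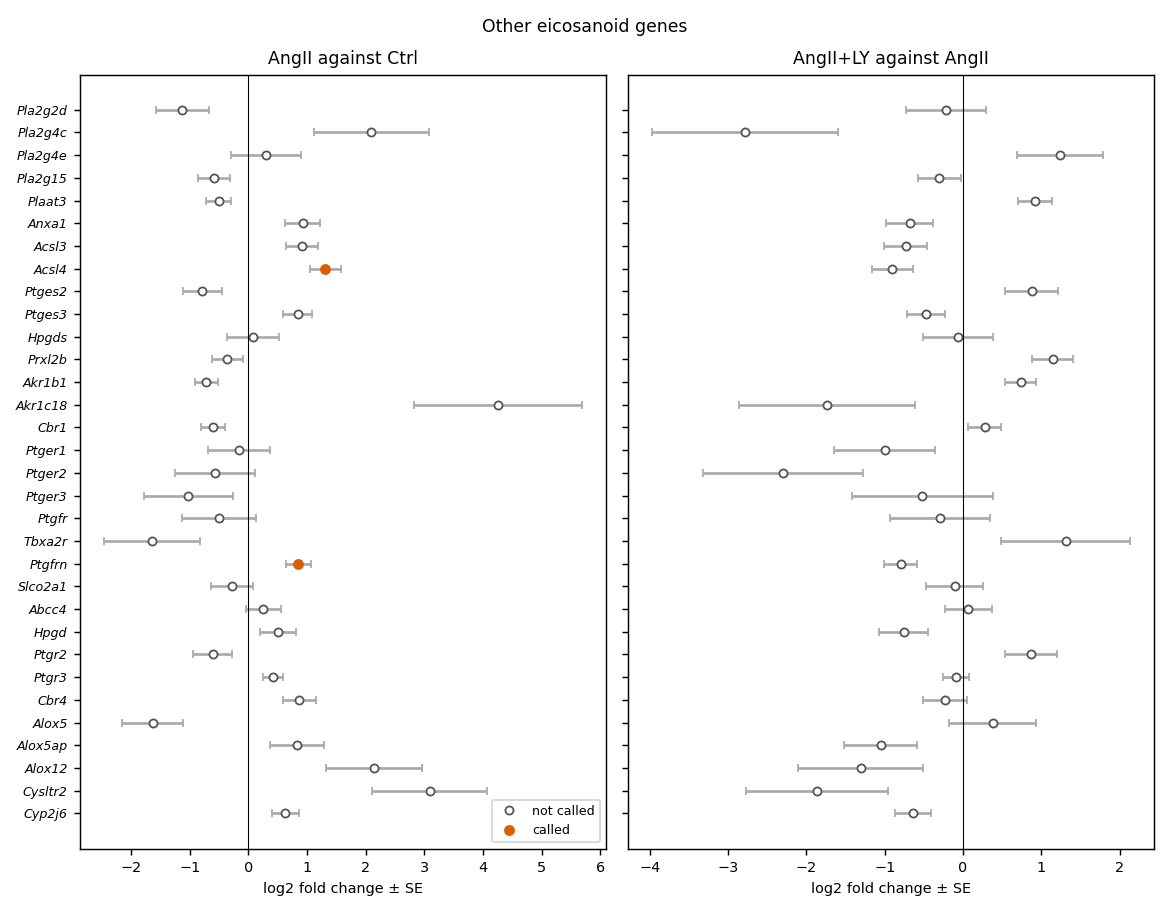
Log2 fold changes ± SE of the other named eicosanoid genes in AngII against Ctrl and AngII+LY against AngII, with filled points for genes called by edgeR. Acsl4 at 1.31 and Ptgfrn at 0.85 are the called genes, and Alox8, with an SE of 2.51, is left out of the plot.

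Acsl4, the acyl-CoA ligase that returns arachidonic acid to the lipid pool, rose with AngII, from 1169 normalized counts on average in Ctrl to 2921 (log2 fold change 1.31, SE 0.26, edgeR adjusted p = 0.0439) without overlap, and was 0.90 lower on the log2 scale in AngII+LY (adjusted p = 0.0697). Ptgfrn, a membrane protein that binds the prostaglandin F receptor, rose from 1439 ± 282 to 2618 ± 557 (0.85, SE 0.21, adjusted p = 0.0485) and stood at 1502 ± 284 in AngII+LY (adjusted p against AngII = 0.0625). Neither call held in the legacy form of the test (adjusted p = 0.0573 and 0.0584) or after the GC correction (0.099 and 0.096). The log2 fold changes were 1.32 and 0.86 in the legacy form, and 0.81 and 1.27 after the GC correction. Both calls were also lost without Ctrl 1, Ctrl 2, Ctrl 3, AngII 3 or AngII 4, and that of Ptgfrn without AngII 2.

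In the list of phospholipases and arachidonate release, 16 of 21 genes were tested, and 0 were called in either comparison. Of those with an unadjusted p under 0.05, Anxa1, which encodes an inhibitor of phospholipase action, had a log2 fold change of 0.93 with AngII (adjusted p = 0.0806), Pla2g4c 2.10, Pla2g2d -1.13, Pla2g15 -0.59 and Plaat3 -0.51. Plaat3, a phospholipase of fat cells, was at 0.925 in AngII+LY against AngII, with no overlap (adjusted p = 0.0501). Adipocyte markers (6 genes, with Lep at 0 in some AngII and AngII+LY libraries) held between 0.0774 and 0.104% of a library in AngII+LY, between 0.0393 and 0.0695% in AngII and between 0.081 and 0.116% in Ctrl, and their part in the Plaat3 value was not tested. In the same comparison Pla2g4e was at 1.23 (0.41 without AngII+LY 4), Pla2g4c at -2.78 and Anxa1 at -0.68. In the re-esterification list Acsl3 was at 0.91 with AngII (adjusted p = 0.0702) and -0.73 in AngII+LY against AngII.

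Among the other synthases, 8 of 8 were tested and 0 called in either comparison. Akr1b1, an aldose reductase with prostaglandin F synthase activity, had log2 fold changes of -0.72 and 0.74 (adjusted p = 0.0559 and 0.0619), both without overlap. Prxl2b, prostamide/prostaglandin F synthase, had -0.36 and 1.15 (adjusted p = 0.381 and 0.0501), and its first value turned to 0.27 after the GC correction. Of the other prostaglandin E synthases, Ptges2 had -0.78 and 0.88 and Ptges3 0.84 and -0.48. Cbr1 stood at -0.60 and Akr1c18 at 4.26 with AngII, the latter ranging from 0 to 460 normalized counts within AngII. Hpgds, the hematopoietic prostaglandin D synthase, was at 0.08 and -0.06, with 427 ± 225 normalized counts in Ctrl and 435 ± 223 in AngII+LY, where Ptgds was highest.

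Among the other receptors, 6 of 8 genes were tested. Ptgdr and Ptgdr2, the receptors of prostaglandin D2, did not reach the minimum, with at most 16 and 50 counts in a library. Ptger2, the other cAMP-raising prostaglandin E receptor, had 98.5 ± 19.0 normalized counts in Ctrl, 53.1 ± 55.1 in AngII and 15.0 ± 28.5 in AngII+LY (log2 fold change AngII+LY against AngII -2.30, SE 1.02, adjusted p = 0.173). Ptger1 (-0.16 with AngII), Ptger3 (-1.03), Ptgfr (-0.50) and Tbxa2r (-1.64), the thromboxane receptor, overlapped between AngII and Ctrl. Tbxa2r ranged from 143 to 1235 within Ctrl.

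Of 7 genes of transport and breakdown, all tested and 0 called, Slco2a1, the prostaglandin uptake carrier, and Abcc4, an efflux pump, were at -0.28 and 0.26 with AngII. Hpgd, the enzyme that inactivates prostaglandins, was at 0.505 with AngII and -0.76 in AngII+LY against AngII (adjusted p = 0.301 and 0.153). Cbr4 (0.87) and Ptgr3 (0.42) in AngII against Ctrl and Ptgr2 (0.87) in AngII+LY against AngII had an unadjusted p under 0.05. In the lipoxygenase branch (12 of 13 tested, 0 called), Alox5 was at -1.63 with AngII (adjusted p = 0.0796) and its partner Alox5ap at 0.83 (adjusted p = 0.251), the latter at -0.09 without AngII 4. Alox12, a platelet lipoxygenase, ranged from 1968 to 31189 normalized counts within AngII, with a median of 2826. Cysltr2, a cysteinyl leukotriene receptor, was at 3.09 (1.54 without AngII 4), and Alox8 at -7.17 (SE 2.51), with a median of 34.7 and a highest value of 2737 in Ctrl. In the epoxygenase branch (6 of 10 tested, 0 called) Cyp2j6 was at 0.63 and -0.64.

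Genes that often accompany induced Ptgs2 were set beside it. Of 12 immediate early and inflammatory genes, 0 were called between AngII and Ctrl, 7 were lower and 1 higher at an unadjusted p under 0.05 (2.90% and 27.6% of all genes). In LY against Ctrl 5 of the 12 were lower at that p (2.53% of all genes, median -0.78), and in AngII+LY against Ctrl 6 were (13.8%, median -0.62). Fos was at -0.94 (adjusted p = 0.0542), Egr1 at -0.60 and Il1b at -0.25, and Egr1 turned to 0.05 after the GC correction. Ccl2 went the other way, with 862 ± 548 normalized counts in Ctrl and 1875 ± 1119 in AngII, with overlap. Il6 was fitted at -0.39 although its mean was 38.2 normalized counts in AngII and 32.6 in Ctrl, with a highest library of 112.5 and a lowest of 0 in AngII. Of 10 mediators of prostanoid signals, 0 were called between AngII and Ctrl (2.90% of all genes). At an unadjusted p under 0.05, 3 were higher and 3 lower (27.6% of all genes). The median log2 fold change of the 2 lists between AngII and Ctrl was -0.62 and -0.23, next to -0.05 over all genes.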

How the data were processed

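Bulk RNA of mouse aortic valve leaflets was sequenced for 14 libraries in 4 groups, taken from the labels. Per the study's methods, the authors checked reads with FastQC (0.12.1), trimmed them, aligned them to GRCm39 with HISAT2, counted them per gene with featureCounts and tested them with DESeq2. Versions of the other tools, the strand setting and the gene annotation are not given in the sources used here. The table is named as normalized, but the deposited values are whole-number counts per gene whose totals differ between libraries, so they were used as raw counts. Of its 56941 genes, 24322 were at 0 in every library.

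The 19145 genes averaging 10 counts or more were fitted with edgeR (4.0.16, R 4.3.3) by its quasi-likelihood test with TMM factors, the 4 groups in one fit and without the legacy setting, and p-values were adjusted by Benjamini-Hochberg over all tested genes. A gene was called at an adjusted p under 0.05 with a log2 fold change beyond 0.5 in either direction. Normalized counts are counts scaled to the mean effective library size, and levels between genes were compared per kilobase of the canonical transcript. Groups did not overlap where every library of one lay above every library of the other. Nothing states more of the replicates than separate samples, so p-values measure the spread between these samples. The 10 genes, the gene lists and the tests were chosen with earlier results of these data known. All 10 genes are named. Other pathway genes are named at an unadjusted p under 0.05 in AngII against Ctrl or in AngII+LY against AngII, or from a short list of receptors, synthases and transporters, and the 5 genes most like each of the 10 by Pearson r are named, except 1 that is not reported here. The edgeR fit was run on simulated counts with known changes, for AngII against Ctrl only. Symbols and transcript lengths came from the GRCm39 annotation (618 genes unmatched), and 2 list symbols were matched by an older name. Alternatives were DESeq2 (1.42.0), limma (3.58.1, pseudocount 0.5), edgeR's legacy and robust forms, upper-quartile factors, a minimum mean count of 100 or none, a fit of the compared groups alone, a GC correction, the replicate number as a block, and leaving out each library. Total count scaling and GC-corrected values for the overlap of groups were added after seeing the data.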

Additional observations from a re-analysis of the deposited data

Results flagged for a closer look

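In 30 sets of 4 libraries (each of the 10 genes in Ctrl, AngII and AngII+LY), the most extreme library was compared with its nearest neighbour. The gap between them was divided by the range of the set and compared with Dixon's limit. Chance exceeds this limit in about 1 in 20 sets if values are normally distributed. The ratio was taken on normalized counts, not on their logarithms. Ptges, the inducible prostaglandin E synthase gene, stood apart in AngII+LY 4 with 3029 normalized counts (gap over range 0.941) and in Ctrl 1 with 941.4 (0.83). Tbxas1, the thromboxane synthase gene, stood apart in AngII 4 with 1506 (0.963). No difference in the effect of LY272015 with and without AngII passed an adjusted p under 0.05 for any of the 10 genes by edgeR, the lowest being 0.246.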

How the results depend on the processing

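Calls depended strongly on the form of the test. Of the log2 fold changes of the 10 genes under alternatives, 728 moved by less than the spread between replicates and 12 by more. The alternatives largely refit the same counts or left out 1 library, so few values could pass this wide limit. Their stability is not judged from it. Ptgs2 between AngII and Ctrl stayed within the limit while going from 3.11 to 2.14 without the smallest library. In 41 of the values under alternatives the sign differed from the main one, 7 of these for Tbxas1 between AngII and Ctrl. Between AngII and Ctrl, 556 genes were called, against 2648 by DESeq2, 1108 at a minimum mean count of 100, 36 without a filter and 0 under the legacy form, limma, the GC correction, the compared groups alone, the replicate block or the replicate block with the GC correction. Of the 10 prostanoid genes 2 were called there, and 0 without a filter and under each setting that called 0 genes. Of the other pathway genes 2 were called, 10 by DESeq2, 5 at a minimum of 100, and 0 under the settings that left the 10 genes with 0.

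Between AngII+LY and AngII, 176 genes were called, against 2062 by DESeq2, 686 at a minimum of 100, 319 by limma, 318 with upper-quartile factors (197 higher and 121 lower), 37 under the robust form, 9 without a filter, and 0 under the legacy form, the GC correction, the compared groups alone and both fits with the replicate block. Of the 10 genes 1 was called, 2 by DESeq2, and 0 under the robust form, without a filter and under the settings that called 0 genes. Of the other pathway genes 0 were called, 5 by DESeq2, 4 at a minimum of 100, 2 by limma and 2 with upper-quartile factors. DESeq2 called 21 genes between LY and Ctrl and 210 for the interaction, where edgeR called 0. Between AngII+LY and Ctrl the main edgeR fit called 0. DESeq2 called 343 there, limma 4, edgeR without a filter 13 and edgeR with the replicate block and the GC correction 1. Each of these alternatives called 1 of the 10 genes. The cause was not tested. The GC correction moved the median log2 fold change of all genes from -0.05 to 0.11 between AngII and Ctrl and from -0.02 to 0.16 between AngII+LY and Ctrl, and limma moved the former to -0.15.

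Leaving out 1 library gave 0 to 2135 called genes, 0 to 3 of the 10 genes and 0 to 7 other pathway genes between AngII and Ctrl, 0 to 1065, 0 to 2 and 0 to 5 between AngII+LY and AngII, 0 to 5, 0 to 1 and 0 between AngII+LY and Ctrl, and 0 throughout for LY and the interaction. The 2 prostanoid calls in AngII against Ctrl were lost without Ctrl 1, 2 or 3 or AngII 3 or 4, and that of Ptgds in AngII+LY against AngII without AngII 2, 3 or 4 or AngII+LY 1, 3 or 4. Pairing by replicate number had no basis in the data: 18 same-numbered pairs correlated at -0.128 to 0.09 in their deviations from the group means, none above 0.1.

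Added after seeing the data, total count scaling gave 3 of the 10 genes without overlap between AngII and Ctrl (Ptgs2 no longer) and GC-corrected values 4 (Ptges no longer, and Ptgs1 higher). Between AngII+LY and AngII GC-corrected values left 1 of 2, and between AngII+LY and Ctrl they gave 2 in place of 1.

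Among other pathway genes, some values turned sign. With the GC correction, and then with the replicate block added, AngII against Ctrl gave -0.27 and -0.15 for Hpgds, 0.273 and 0.219 for Prxl2b, 0.335 and 0.337 for Ptger1 and -0.061 and -0.09 for Hpgd, and AngII+LY against AngII gave 0.365 and 0.25 for Hpgds and 0.155 and 0.191 for Cbr4. Ptgfr turned to 0.173 with the GC correction and Abcc4 to -0.032 with both. Leaving out 1 library, AngII against Ctrl ran from -0.131 to 0.481 for Hpgds, -0.742 to 0.311 for Ptgfr, -0.465 to 0.046 for Slco2a1 and -0.092 to 1.074 for Alox5ap. AngII+LY against AngII ran from -0.778 to 0.159 for Pla2g2d, -0.424 to 0.128 for Hpgds, -1.447 to 0.142 for Ptger3, -0.465 to 0.101 for Slco2a1, -0.126 to 0.286 for Abcc4, -1.649 to 0.616 for Alox12 and -0.826 to 7.747 for Alox8. The closest genes were ranked again by Spearman rho and by deviations from the group means. Of the 100 ranks so obtained, 65 fell outside the first 5 and 35 did not. The LY group has 2 libraries, and AngII 4 has the fewest counts (20990655).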
